A study of Homo sapiens with 18 samples.

Results

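WNT ligands, receptors and antagonists were examined in HEK293T, an established human cell line derived from embryonic kidney, with and without valproic acid (VPA), a drug that blocks histone deacetylases. The members were the protein-coding genes of chromosomes 1 to 22 whose symbols matched the WNT, FZD, LRP5, LRP6, RSPO, SFRP1 to SFRP5 and DKK1 to DKK4 names, 43 of 19111 genes in GENCODE 44. They comprised 19 WNT ligands, 10 Frizzled receptors, 2 LRP co-receptors, 4 R-spondins, 4 secreted Frizzled-related proteins (SFRP) and 4 Dickkopf (DKK) genes. The family member that carries the symbol FRZB fell outside the name rule and was counted with the other pathway genes. ChIP-seq libraries against acetylated lysine 27 of histone H3 (H3K27ac), a mark of active promoters and enhancers, and against CTCF, the zinc finger protein found at loop anchors of chromatin, were compared between untreated cells (CTRL) and cells given 1 mM VPA for 1 day. Each of the 4 groups held 3 libraries of formaldehyde-fixed, sonicated chromatin from this 1 cell line. The labels do not tie the replicates to separate cultures, so the p-values measure the spread between these libraries, which may be technical. In such bulk libraries, fewer cells with a mark and less of the mark per cell cannot be told apart.

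WNT proteins are secreted lipid-modified ligands that bind a Frizzled receptor on the receiving cell. Together with the co-receptors LRP5 and LRP6, a ligand-bound Frizzled stabilises beta-catenin, which then acts with TCF/LEF factors on target genes. SFRP proteins bind the ligands outside the cell, most DKK proteins bind the LRP co-receptors, and R-spondins strengthen the signal by protecting the receptors from removal. Most Frizzled genes hold their coding sequence in 1 exon, while FZD3 and FZD6 are longer genes with introns.

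To show what lies ahead of the acetylated and unacetylated starts, the 250 bases before the gene start are given for 5 members, read 5′ to 3′ on the gene's strand from RefSeq (GRCh38.p14). Capitals mark GC boxes (GGGCGG, or CCGCCC on the other strand) and CCAAT boxes (CCAAT, or ATTGG on the other strand). The FZD8 stretch lies on chromosome 10 at 35642297 to 35642546 (minus strand) and the FZD1 stretch on chromosome 7 at 91264183 to 91264432 (plus strand). Both starts carried H3K27ac in all 6 libraries and are described below among the regions that fell after VPA.
FZD8: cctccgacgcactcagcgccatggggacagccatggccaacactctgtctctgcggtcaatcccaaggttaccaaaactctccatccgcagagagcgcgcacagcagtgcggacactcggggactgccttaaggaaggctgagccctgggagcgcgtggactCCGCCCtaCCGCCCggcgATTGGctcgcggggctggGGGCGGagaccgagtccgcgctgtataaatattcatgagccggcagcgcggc
FZD1: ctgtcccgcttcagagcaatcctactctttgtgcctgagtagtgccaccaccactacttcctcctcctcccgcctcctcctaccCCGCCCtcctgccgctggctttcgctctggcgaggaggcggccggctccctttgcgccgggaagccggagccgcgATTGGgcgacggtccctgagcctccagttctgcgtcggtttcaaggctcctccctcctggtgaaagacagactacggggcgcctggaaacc

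The LRP5 start also carried H3K27ac in all 6 libraries, and its stretch lies on chromosome 11 at 68312341 to 68312590 (plus strand). WNT8B (chromosome 10, 100462759 to 100463008, plus strand) and WNT1 (chromosome 12, 48978072 to 48978321, plus strand) had no H3K27ac peak at the start in any library, although each held a region that was found only after VPA.
LRP5: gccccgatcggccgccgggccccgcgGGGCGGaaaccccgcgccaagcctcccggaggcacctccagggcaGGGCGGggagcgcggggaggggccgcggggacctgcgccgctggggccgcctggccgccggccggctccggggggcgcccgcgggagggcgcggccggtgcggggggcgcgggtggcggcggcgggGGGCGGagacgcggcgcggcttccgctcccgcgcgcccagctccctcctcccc
WNT8B: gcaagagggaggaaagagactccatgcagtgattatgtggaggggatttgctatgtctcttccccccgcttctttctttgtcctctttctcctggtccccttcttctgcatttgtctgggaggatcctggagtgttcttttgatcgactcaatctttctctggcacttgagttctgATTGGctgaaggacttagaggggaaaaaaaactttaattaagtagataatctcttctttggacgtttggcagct
WNT1: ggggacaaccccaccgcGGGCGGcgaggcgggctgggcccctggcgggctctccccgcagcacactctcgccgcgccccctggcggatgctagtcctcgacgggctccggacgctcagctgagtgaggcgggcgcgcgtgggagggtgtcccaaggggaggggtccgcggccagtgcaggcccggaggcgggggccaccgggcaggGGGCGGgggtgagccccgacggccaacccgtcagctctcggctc

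These sequences differ in base composition. The stretch of LRP5 was 87.2% G and C with 43 CpG pairs, and that of WNT8B was 45.2% G and C with 3 CpG pairs. A RefSeq start within 1 kb of the GENCODE start was matched for 23 of the 43 members. GC boxes stood before 8 of 8 matched members with a start peak in all 6 libraries and before 5 of 7 matched members with none. Over all protein-coding genes matched in the same way, GC boxes stood before 73.2% of the 7367 starts with a peak in all libraries and before 28.4% of the 3942 starts with none. The 7 matched members without a start peak had a median of 76.8% G and C, against 52.4% for all starts without one. CCAAT boxes stood before 8 of the 23 matched members (34.8%) and before 34.5% of all 12669 matched starts. The TCF/LEF letters CTTTGAT, searched on both strands, occurred before 0 of 23 members and before 1.72% of all starts.

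The libraries differed by treatment and by replicate. The H3K27ac lists held 26299 to 29799 peaks in CTRL and 38441 to 40992 in VPA, with no overlap, and the CTCF lists held 36469 to 58782 peaks with overlapping treatments, while the background coverage, a measure of relative depth recovered from the lists, ranged only from 3.51 to 3.95 fragments. The read totals are unknown. Replicate 1 stood apart in all 4 groups. Its fold enrichments were lower at the strong H3K27ac regions (median fold over all regions with a peak in all libraries 7.63 in CTRL replicate 1 and 17.2 and 16.3 in CTRL replicates 2 and 3), so values without it are given beside the results that rest on it. Of 6 genes known to be active in HEK293 cells, LHX1, WT1, VIM, NEFM and INA had H3K27ac at the start in all 6 libraries and PAX2 in none, and 0 of 8 markers of liver, blood, heart and pancreas had it in any library.

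The first question was which WNT genes carried H3K27ac at the start. A peak summit lay within 1 kb of the start in 15 members in all 6 libraries, in 14 members in some libraries, and in 14 members in no library. The 15 members were 34.9% of the list, against 51.4% of all protein-coding genes. Receptors made up most of them. All Frizzled genes except FZD10, that is 9 of 10, and both co-receptors were marked in all 6 libraries, whereas 3 of 19 ligands (WNT9A, WNT5B and WNT10B), 1 of 4 DKK genes (DKK1) and 0 of 8 SFRP and R-spondin genes were.

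Among members marked in all 6 libraries, start peaks of the Frizzled genes stood above those of the ligands within the CTRL lists. Ranks are against all peaks of a list, and start peaks of genes outside the members were not ranked for comparison. Percentiles here and below rank the peaks of a library by the −log10 q-value of the peak caller, not by fold enrichment. By this rank, the 9 Frizzled start peaks had a median mean percentile of 78.8 and a range of 66.7 to 94.1. The 3 ligand start peaks ranked lower, with a median of 51.6 and a highest value of 63.3. Among these start peaks, FZD7, whose protein is a receptor of embryonic and stem cells, ranked first at 94.1, and LRP6, the more broadly used co-receptor, followed at 93.7.

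**Figure D1:**
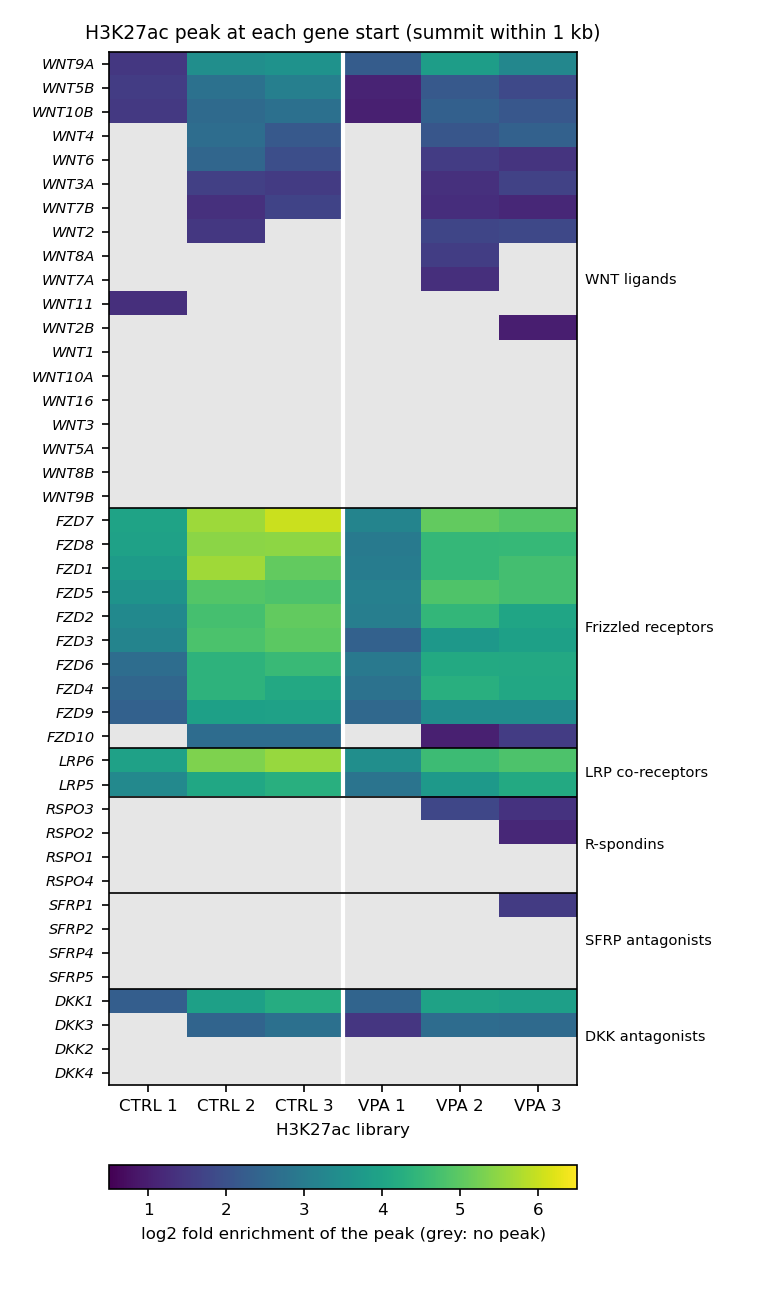
H3K27ac peak at the start of each of the 43 genes (rows, grouped by role) in the 6 libraries (columns), coloured by the log2 fold enrichment of the highest peak with a summit within 1 kb of the start. Grey marks no such summit, and colour fills all 6 columns for 9 of 10 Frizzled genes, both co-receptors, 3 ligands and DKK1.

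The remaining genes had a summit near the start in fewer libraries or in none. The 14 starts without a summit within 1 kb in any library belonged to the ligands WNT1, WNT3, WNT5A, WNT8B, WNT9B, WNT10A and WNT16, the R-spondins RSPO1 and RSPO4, the antagonists SFRP2, SFRP4 and SFRP5, and DKK2 and DKK4. Of these genes, RSPO1 and DKK4 had no H3K27ac peak anywhere in the gene body or the 10 kb on either side in any library, while the other 12 held peaks elsewhere in the window. A summit over 1 kb away does not mean an unmarked start. The WNT5A start lay inside a wide region present in all 6 libraries, whose summit was 2343 bp away and which stood at percentiles of 95.6, 95.6 and 94.7 in the CTRL lists. The WNT11 start, with a near summit in 1 library, likewise lay inside a region present in all 6 libraries. For SFRP4, the start was that of a gene record of 119764 bp. A region 108892 bp inside it, in an untranslated part of SFRP4, had a peak in 2 CTRL and 2 VPA libraries. FZD10 had a start peak in 2 CTRL and 2 VPA libraries, with folds of 6.14 and 6.16 in CTRL and 2.04 and 2.98 in VPA, and none in replicate 1 of either treatment. Partly marked starts were weak and mostly missing from replicate 1. The ligand starts of WNT4, WNT6, WNT3A and WNT7B each had a peak in replicates 2 and 3 of both treatments and in neither replicate 1, with folds between 2.24 at WNT7B and 6.25 at WNT4. RSPO3 had a start peak in 0 CTRL libraries and in 2 VPA libraries, at folds of 3.43 and 2.62.

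The number of members with a start peak was 16, 22 and 21 in the CTRL libraries and 16, 25 and 26 in the VPA libraries. The means were 19.7 ± 3.21 and 22.3 ± 5.51 (SD, n = 3), and the groups overlapped. No member gained or lost a start peak in all 3 libraries of a treatment (0 only in VPA, 0 only in CTRL), and over all 19111 genes 46 and 24 did. When the lists were cut to equal lengths the difference turned from 2.67 to -2 members, so its direction depended on the list lengths.

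The next comparison concerned all peaks that shared at least 1 bp with a member's gene body or the 10 kb on either side. H3K27ac peaks numbered 46, 61 and 64 in the CTRL libraries and 61, 75 and 74 in the VPA libraries, each peak counted once. The means were 57 ± 9.64 and 70 ± 7.81 (SD, n = 3), a ratio of 1.23. The groups overlapped, and VPA was higher in 3 of 3 same-numbered pairs. Over all protein-coding windows the same ratio was 1.36. As a share of each list, member peaks were 0.199% ± 0.021 in CTRL and 0.174% ± 0.0136 in VPA. At equal list lengths the difference in peak number was -3.33, against 13 with the full lists, so its sign depended on the list lengths.

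Within the list, the ligands held the largest number of peaks. Their H3K27ac peaks numbered 20, 28 and 26 in the CTRL libraries against 27, 36 and 32 in the VPA libraries (ratio 1.28). For the Frizzled windows the counts were 16, 19 and 21 without VPA, and 18, 21 and 23 with it (ratio 1.11). The 4 R-spondin windows together held 0, 0 and 1 peak in CTRL and 1, 1 and 2 in VPA. In each of these roles the VPA mean lay above the CTRL mean while the libraries of the treatments overlapped or met, and ligand and Frizzled counts were higher after VPA in 3 of 3 pairs. As a share of each list, ligand peaks were 0.0860% in CTRL and 0.0788% in VPA, and Frizzled peaks 0.0652% and 0.0515%, the opposite direction. The SFRP windows held 2, 3 and 4 peaks without VPA and 3, 5 and 5 with it, and the DKK windows 4, 5 and 5 against 6, 5 and 5.

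**Figure D2:**
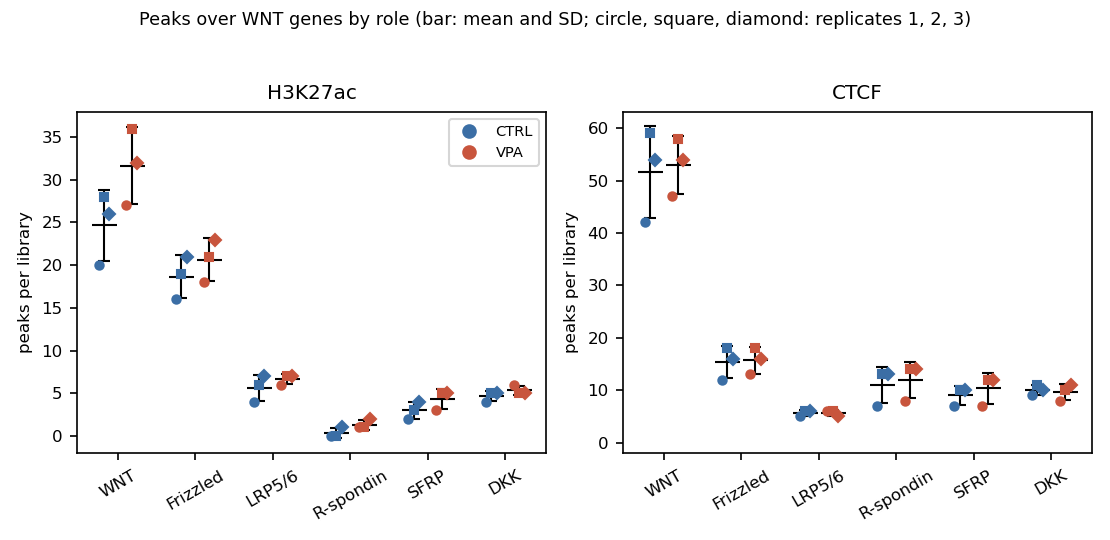
Peaks per library over the windows of each role for H3K27ac (left) and CTCF (right), with CTRL libraries in blue and VPA libraries in red. Horizontal marks and bars give the mean and SD of 3 libraries, and the ligand windows averaged 24.7 H3K27ac peaks per CTRL library and 31.7 per VPA library, with overlapping libraries and longer VPA lists, and CTCF means of 51.7 and 53.

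The mean number of H3K27ac peaks was higher in VPA for 24 members, lower for 1 (WNT10B) and equal for 18. Members whose VPA libraries all held more H3K27ac peaks than all CTRL libraries numbered 2 of 43 (4.65%), where 10.2% of all protein-coding genes did so. The count was 0 at equal list lengths, 0 with the gene body alone, 4 without VPA replicate 1 and 4 with replicate 1 left out of both treatments. The share of all genes was not counted under these settings. FZD7 held 3 peaks in each CTRL library and 4 in each VPA library. WNT8B, a ligand of the early forebrain, held 1 peak in each CTRL library and 2, 2 and 4 in the VPA libraries. Both gave p = 0.1 in a two-sided exact permutation test, the smallest value that 3 against 3 libraries allow. No member (0) showed fewer peaks in every VPA library, as did 0.147% of all genes.

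Merging the peaks of the 6 libraries gave 95 H3K27ac regions at the members. Of these, 41 had a peak in all 6 libraries, 3 were found in all VPA libraries and in no CTRL library (3.16%, against 3.67% of regions over all gene windows), 0 were found only in CTRL (0.141% of regions over all gene windows), and 51 had other patterns. Among the 54 regions not shared by all libraries, 34 had a peak in more VPA than CTRL libraries and 7 in more CTRL than VPA libraries. The share with more VPA libraries was 63.0% at members and 76.7% over all gene windows.

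The 3 regions found only after VPA lay away from gene starts. The WNT8B region (chr10:100454101-100454874) lay between genes, 8442 bp before the start, and its peaks had folds of 3.33, 4.62 and 2.29 in VPA replicates 1, 2 and 3. The DKK2 region (chr4:107243189-107243973) lay in an intron 40271 bp inside the gene, with folds of 8.98, 3.54 and 3.24. The WNT1 region (chr12:48991168-48992289) lay between genes, nearer to the start of DDN at 7798 bp, with folds of 3.38, 2.11 and 2.28. These were weak peaks, whose mean percentile within the VPA lists was 34.4, 37.0 and 16.6. With replicate 1 left out of both treatments, 6 regions were found only in VPA, and 0 only in CTRL. This rule is easier to meet with fewer libraries. The share over all gene windows was not counted for it, so the 6 cannot be set against the 3.

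Signal strength was then compared at the regions with a peak in every library, using the fold enrichment of the highest peak. This is a ratio to the background of the same library, so falls and rises below are relative. The absolute amount of H3K27ac was not measured. Across 18407 such regions of the genome, limma without pairing called 0 at an adjusted p under 0.05 (0%), with 301 at an unadjusted p under 0.05. At the 41 member regions 0 were called, 0 had an unadjusted p under 0.05, and the median log2 difference was -0.19, against -0.14 over all regions. The spread between replicates was wide in this fit, with standard errors of 0.716 at the FZD3 start and 0.758 at the FZD7 start.

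Libraries with the same replicate number deviated together in H3K27ac, so the comparison was also made within pairs. The correlations set replicate 1 apart from replicates 2 and 3. They did not show which libraries of replicates 2 and 3 belong together (r = 0.585 and 0.591 for same numbers, 0.607 and 0.554 for crossed numbers). With the replicate number as a block, limma called 2169 regions lower (11.8%) and 871 higher (4.73%) in VPA over the genome. Of the 41 member regions, 8 fell and 1 rose. The 8 were the start regions of FZD3, FZD8, FZD7, FZD1, LRP6 and WNT5B, an intronic region of WNT5A and a region in the untranslated end of WNT3. The 1 that rose lay in an intron of LRP5. The starts that fell were thus those of 4 Frizzled receptors, 1 co-receptor and 1 ligand. The WNT5B start was the edge of a gene record of 117322 bp, and other starts inside the record were not examined. With each library centred on its median, the paired fit called 1578 regions lower and 1187 higher over the genome, and 7 and 1 at the members.

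The receptor starts changed as follows. At the FZD8 start (chr10:35640398-35644232, summit 322 bp inside the gene) folds were 15.3, 43.9 and 45.0 in CTRL and 7.83, 22.4 and 22.9 in VPA. The log2 difference was -0.97 ± 0.19 (SE) with an adjusted p of 0.00433 in the paired limma fit. All 3 pairs fell to about the same degree, although VPA replicates 2 and 3 lay above CTRL replicate 1.

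FZD3, a receptor of planar cell polarity and axon growth, had the most negative fold difference among the 41 regions in the paired fit, while on recovered pileups WNT5A did (-1.12). Its start region (chromosome 8, 28493373 to 28495515) had folds of 9.24, 27.9 and 31.7 in CTRL and 5.11, 12.9 and 15.2 in VPA, a log2 difference of -1.01 ± 0.20 (adjusted p 0.00466, paired limma). FZD7 (chr2:202031965-202035535) had 15.7, 49.4 and 64.7 in CTRL and 9.23, 33.2 and 29.8 in VPA, a difference of -0.82 ± 0.20 (adjusted p 0.0118, paired limma). The FZD7 start thus fell in the window that gained a peak in every VPA library. Its regions in fewer than 6 libraries lay 5236 and 13020 bp past the start, and had a peak in 2 and 1 CTRL libraries and in 3 and 3 VPA libraries.

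FZD1 (chr7:91262917-91265763) had folds of 13.9, 49.9 and 33.6 in CTRL and 8.16, 22.4 and 26.1 in VPA (log2 difference -0.76 ± 0.21, adjusted p 0.0191, paired limma). LRP6 (chr12:12265513-12268173) had 15.4, 40.2 and 48.0 in CTRL and 11.0, 24.6 and 28.5 in VPA (-0.65 ± 0.19, adjusted p 0.0296, paired limma). Both fell in each of the 3 pairs.

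The remaining Frizzled starts did not pass the paired test. FZD2 had a log2 difference of -0.53 ± 0.21 (adjusted p 0.0924, paired limma) and was lower in 3 of 3 pairs. FZD5, FZD6 and FZD9 had differences of -0.21, -0.14 and -0.29, and FZD4, a receptor known from retinal vessel disease, of 0.05. The start of LRP5, the other co-receptor, differed by -0.33 ± 0.21 (adjusted p 0.272, paired limma). Over the 15 member starts with a peak in all libraries, 10 were lower in all 3 pairs and 0 higher in all 3 pairs, with a median of -0.42. Over all 18407 regions, near a start or not, 34.9% were lower and 17.3% higher in all 3 pairs. Of the 8685 regions near any protein-coding start 76.8% had a negative difference, with a median of -0.26. Among the 20 such regions in the member windows, 17 (85%) had a negative difference, with a median of -0.38.

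Among the ligands, WNT5A and WNT5B, which mostly act without beta-catenin, both held a region that fell. The WNT5A region (chr3:55484641-55493148) was the widest of the 41, with its summit in an intron 2343 bp inside the gene. Its folds were 16.7, 39.7 and 35.0 in CTRL and 9.70, 24.0 and 22.7 in VPA (-0.71 ± 0.19, adjusted p 0.0192, paired limma). The WNT5B start region (chr12:1530045-1531565) was weak, with folds of 2.98, 6.65 and 8.53 in CTRL and 2.16, 4.49 and 3.52 in VPA (-0.77 ± 0.25, adjusted p 0.0431, paired limma).

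WNT3, a ligand needed for gastrulation, held a region at the far end of the gene (chr17:46770378-46772792), 61729 bp from its start. Folds there were 11.8, 28.3 and 25.2 in CTRL and 6.52, 15.6 and 19.2 in VPA (-0.70 ± 0.20, adjusted p 0.0273, paired limma). The start of WNT9A did not fall, with folds of 2.79, 11.0 and 11.7 in CTRL and 4.72, 14.4 and 9.70 in VPA (0.29 ± 0.24, adjusted p 0.425, paired limma). The start of WNT10B had a difference of -0.42 ± 0.24 (adjusted p 0.228, paired limma). Of the 17 ligand regions, 7 were lower and 3 higher in all 3 pairs, shares near the 34.9% and 17.3% of all regions.

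The LRP5 region that rose (chr11:68440771-68443001) lay 128888 bp inside the gene and 19252 bp from the start of PPP6R3. Its folds were 2.76, 6.75 and 4.25 in CTRL and 6.12, 8.91 and 8.20 in VPA (0.83 ± 0.24, adjusted p 0.0278, paired limma), higher in 3 of 3 pairs. LRP5 thus held a weak internal region that rose and a stronger start that did not pass the test in either direction. Among the antagonists 0 of 5 regions were called. The DKK1 start had folds of 4.93, 15.1 and 18.5 in CTRL and 5.43, 15.5 and 14.8 in VPA, a difference of -0.05 ± 0.22 (adjusted p 0.896, paired limma).

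**Figure D3:**
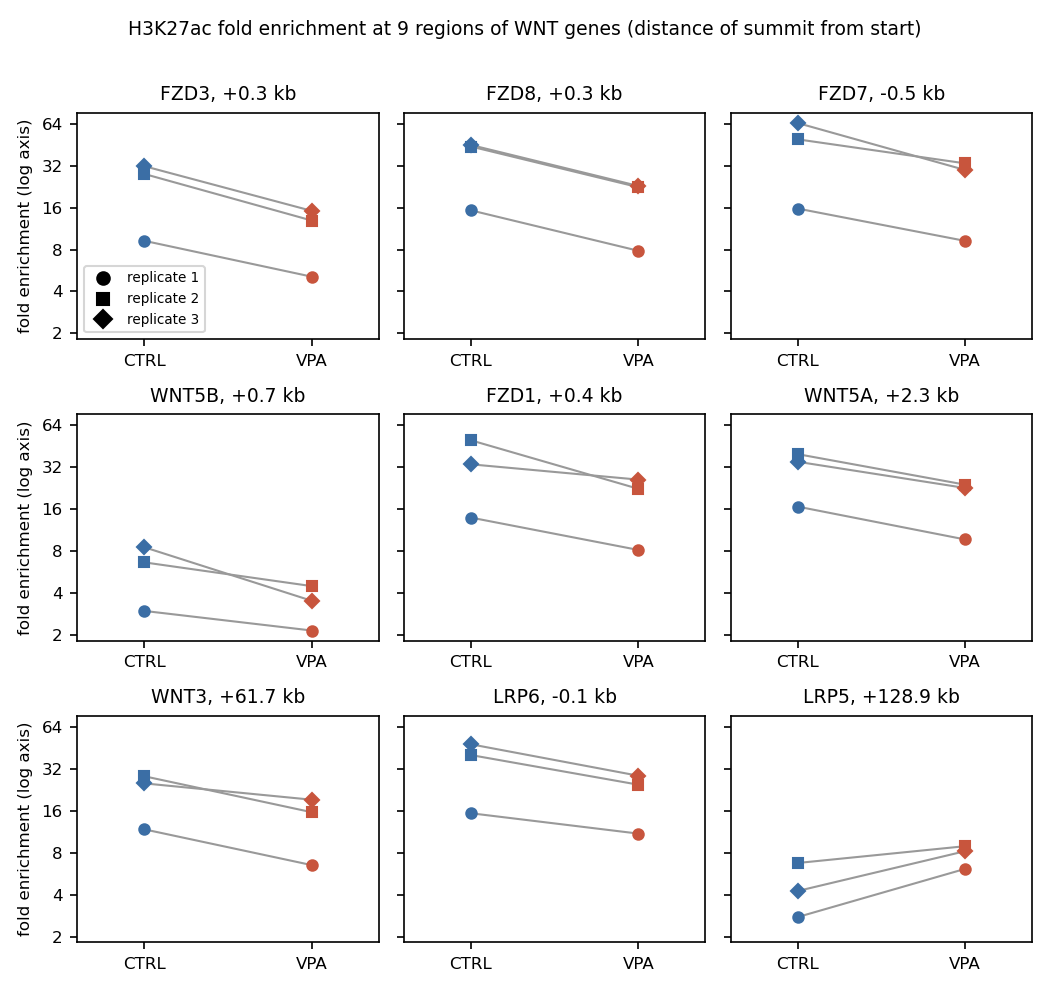
Fold enrichment (log axis) of H3K27ac at the 9 member regions with an adjusted p under 0.05 in the paired fit, with the distance of the summit from the gene start in each title. Lines join CTRL (blue) and VPA (red) libraries of the same replicate number, and every line falls in 8 panels and rises in the panel of the internal LRP5 region.

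These calls rest on the pairing and on the scale. With replicates 2 and 3 alone, 4 of 54 member regions were called, all lower. Over the genome 1402 of 22651 regions were then called lower and 633 higher. The 4 were the starts of FZD3 (adjusted p 0.00988), FZD8 (0.0154), FZD7 (0.0346) and FZD10 (0.00744, limma), and the other 6 regions of the paired fit kept their direction. The fragments piled up at the summit, divided by the background coverage of the library and compared without pairing, gave 10 lower and 1 higher of the 41 member regions, where 13.3% and 4.04% of all regions were called. After centring on the median the same comparison gave 12 lower and 5 higher, against 4996 lower and 2194 higher of all 18407 regions. At the FZD8 summit the pileups were 529, 376 and 345 fragments in CTRL and 259, 162 and 215 in VPA, so on this measure the groups did not overlap. The same held for 11 of the 41 member regions in the lower direction and for 3 in the higher, against 23.8% and 10.8% of all regions.

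**Figure D4:**
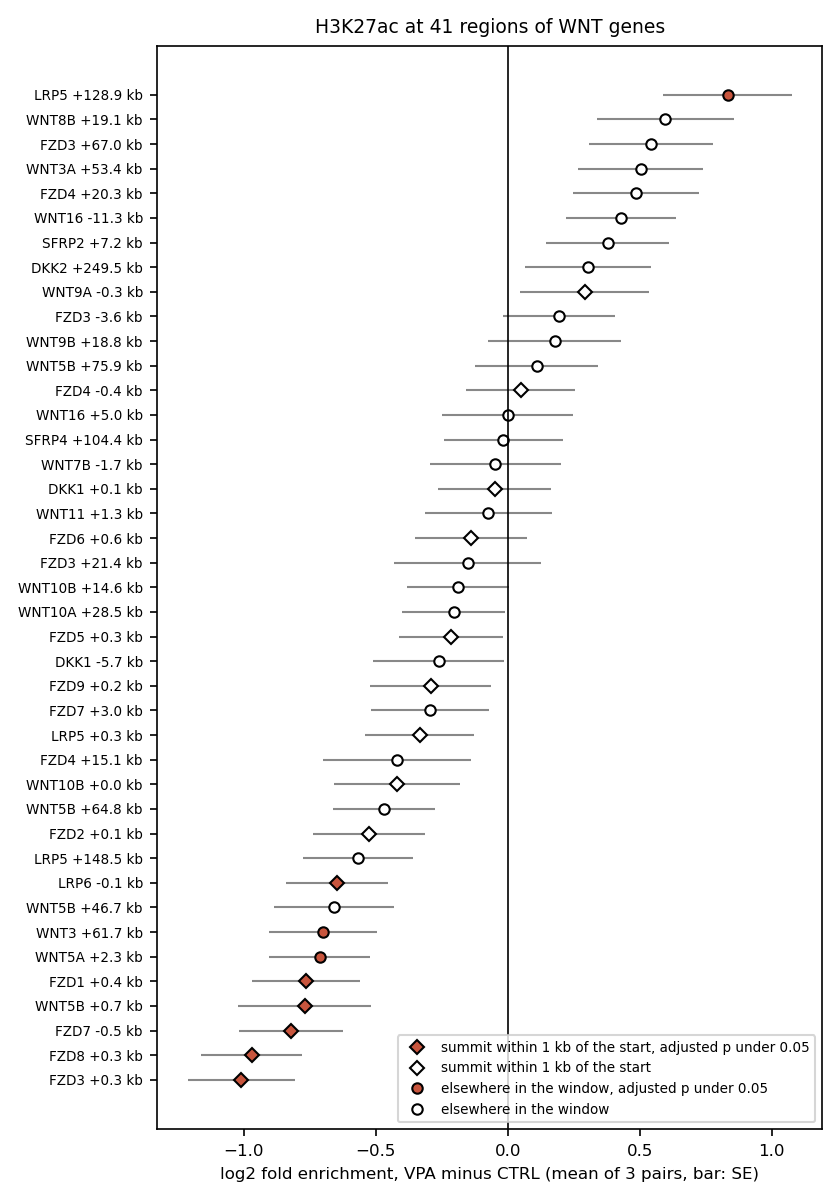
Log2 difference in H3K27ac fold enrichment (VPA minus CTRL, mean of 3 replicate pairs, bars SE) for the 41 member regions with a peak in all libraries, ordered by size and labelled with the distance of the summit from the gene start. Filled symbols have an adjusted p under 0.05, and 6 of the 8 filled symbols on the lower side are gene starts (diamonds).

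Strong regions fell in fold enrichment over the whole genome, and the members have to be read against that. Of the 4602 regions with the highest mean fold enrichment, 31.2% were called lower and 0.0435% higher in the paired fit, against 5.30% and 6.29% of the remaining 13805. Of the 9 member regions among the strongest 4602, 5 were called lower, and of the other 32, 3 were called lower and 1 higher. Among regions with a summit within 1 kb of any protein-coding start, 15.6% were called lower, and 6 of the 20 such regions in the member windows were. A difference between members and other regions of like strength was not tested.

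**Figure D5:**
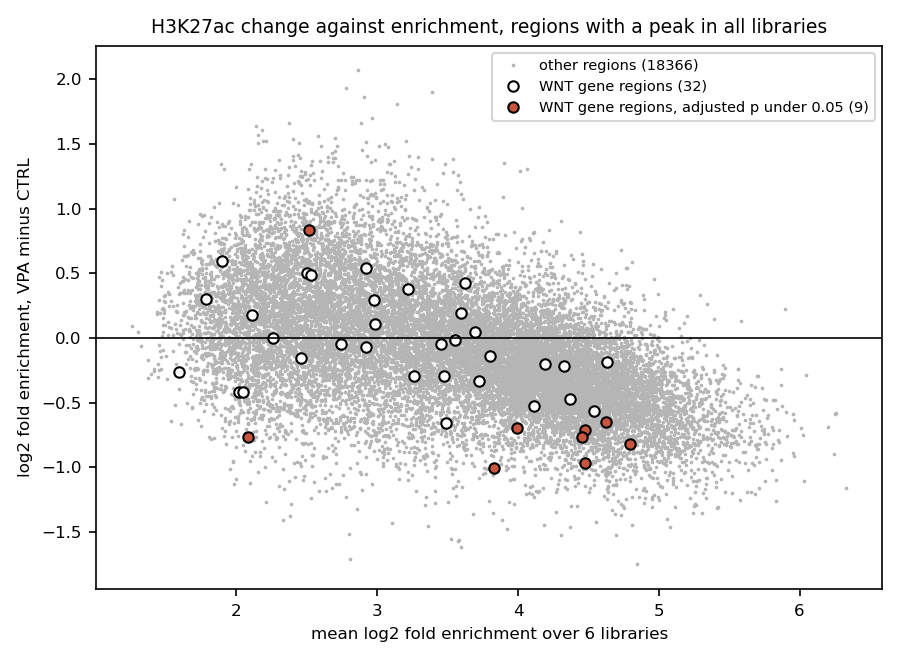
Log2 difference in H3K27ac fold enrichment (VPA minus CTRL) against the mean log2 fold enrichment of the 6 libraries for all 18407 regions with a peak in every library. Grey points are other regions and circles the 41 member regions, and the cloud slopes downward so that the median was -0.45 over the 4602 strongest regions and -0.02 over the remaining 13805.

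CTCF was compared in the same way. CTCF peaks over the member windows numbered 82, 117 and 109 in CTRL and 89, 118 and 112 in VPA. The means were 103 ± 18.3 and 106 ± 15.3 (SD, n = 3), a ratio of 1.04, against 0.935 over all protein-coding windows, and the groups overlapped. The ligand windows held 42, 59 and 54 CTCF peaks without VPA and 47, 58 and 54 with it, and the Frizzled windows 12, 18 and 16 against 13, 18 and 16. A CTCF peak was present in all 6 libraries at 38 members and in no library at 1, WNT2. No member had more CTCF peaks in every VPA library (0, against 0.351% of all genes) or fewer (0, against 0.774%). Of 135 CTCF regions at the members, 0 were found only in VPA and 0 only in CTRL, where 0.177% and 0.397% of regions over all gene windows were.

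At the 72 member regions with a CTCF peak in all libraries, limma called 0, as it did over all 27794 regions (0%), with 254 regions of the genome and 0 member regions at an unadjusted p under 0.05. In the paired fit the call count was also 0, with 598 regions of the genome and 1 member region at an unadjusted p under 0.05. The highest-ranked CTCF regions were at WNT9A, DKK1, WNT11 and WNT7B, at mean percentiles of 99.5, 99.5, 99.3 and 99.3 within the lists. The DKK1 region (chr10:52314007-52315731) lay over a coding exon 304 bp inside the gene, with folds of 51.6, 98.3 and 92.8 in CTRL and 98.3, 132 and 95.1 in VPA.

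Of the 5 largest log2 differences in CTCF at the members, 4 were negative and had their lowest fold in VPA replicate 1. At the region 5871 bp before DKK1 (chr10:52307980-52308852) folds were 78.9, 65.8 and 96.3 in CTRL and 9.36, 60.3 and 64.4 in VPA, and at the WNT5B region 104914 bp inside the gene they were 89.8, 85.3 and 62.7 in CTRL and 10.5, 97.5 and 49.6 in VPA. In both, VPA replicate 1 alone lay far below the others. The same library was lowest at the WNT9B region 2869 bp inside the gene (183, 70.5 and 58.4 in CTRL and 18.4, 101 and 61.0 in VPA, so that CTRL replicate 1 was also the highest) and at the region 6781 bp before WNT6 (9.99, against 57.2 and 42.4). The log2 differences at these 4 regions, -1.26 ± 0.80, -1.08 ± 0.81, -0.91 ± 0.72 and -0.81 ± 0.77, were within the spread between replicates. At the region 6153 bp before WNT9A (chr1:227953392-227954584) folds were 42.3, 43.6 and 55.4 in CTRL and 91.0, 81.9 and 78.8 in VPA, a difference of 0.84 ± 0.41. There the groups did not overlap, but the unadjusted p was 0.0725 and the adjusted p 1.00 in limma.

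To show the sequence under CTCF at members named above, the core letters CCNNNAGNNGGC were searched on both strands within 50 bp of each CTCF summit. They were found at 26 of the 72 member regions present in all libraries (36.1%), against 37.0% of all such regions, and at 0 of 72 windows 2 kb away, against 1.31% for all regions. Sites in members with a changed or VPA-only acetylated region are given from hg38, 5′ to 3′ on the strand that carries the letters, which are in capitals. They lie on chromosome 3 at 55485245 to 55485284 (WNT5A, plus strand, intron), chromosome 11 at 68384103 to 68384142 (LRP5, minus strand, intron), chromosome 12 at 48978132 to 48978171 (WNT1, minus strand, just before the start), chromosome 10 at 35640748 to 35640787 (FZD8, plus strand, coding exon) and chromosome 17 at 46822489 to 46822528 (WNT3, minus strand, intron).
WNT5A: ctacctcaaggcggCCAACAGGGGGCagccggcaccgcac
LRP5: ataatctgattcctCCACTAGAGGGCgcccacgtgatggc
WNT1: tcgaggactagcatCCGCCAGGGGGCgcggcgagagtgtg
FZD8: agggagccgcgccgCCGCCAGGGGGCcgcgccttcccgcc
WNT3: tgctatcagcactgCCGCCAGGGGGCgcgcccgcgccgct

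Acetylated regions of these genes often shared at least 1 bp with a CTCF region. Of the 41 H3K27ac member regions in all libraries, 29 (70.7%) overlapped a CTCF region, against 54.0% over all gene windows. Counted from CTCF, the direction was the opposite. Of the 72 CTCF member regions in all libraries, 32 (44.4%) overlapped an H3K27ac region, against 50.5% over all gene windows. The WNT5A region that fell in H3K27ac contains the CTCF site printed above, where CTCF folds were 37.3, 88.8 and 84.4 in CTRL and 81.4, 96.8 and 75.7 in VPA. The FZD8 start region that fell overlaps the CTCF site in its coding exon, with folds of 26.6, 28.3 and 38.8 in CTRL and 49.7, 33.9 and 43.6 in VPA. CTCF differed by 0.36 ± 0.44 and 0.44 ± 0.59 at these sites (SE, adjusted p 1.00 each, limma without pairing). That fit called no region for either antibody, so it gives no contrast between the marks. Other CTCF regions with a peak in all libraries also lay inside the acetylated regions that fell. They differed by -0.19 ± 0.32 at FZD8, 0.14 ± 0.33 at FZD7, and 0.11 ± 0.37 and 0.005 ± 0.42 at WNT5A (log2, SE, same fit). The remaining CTCF regions there lacked a peak in some libraries and were not tested. A region at FZD1 (chr7:91263410-91263798) and another at WNT5A (chr3:55491734-55492112) each had a peak in 2 CTRL and 0 VPA libraries. A second FZD1 region (chr7:91264261-91265127) and the region at the FZD3 start each had one in 3 CTRL and 2 VPA libraries. In the other direction, a region at FZD7 (chr2:202035243-202035738) had a peak in 1 CTRL and 2 VPA libraries. A region at LRP6 (chr12:12267142-12267477) had one in 0 CTRL and 1 VPA library. CTCF regions in all 6 libraries with a summit within 1 kb of a Frizzled start stood at mean percentiles of 22.1 for FZD8, 21.8 for FZD7, 59.8 for FZD5 and 55.0 for FZD4.

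Other genes of the pathway were counted for comparison, from a list of 49 autosomal genes that includes the LGR receptors, ZNRF3, Dishevelled, AXIN, beta-catenin and the TCF/LEF factors. H3K27ac peaks were more numerous in every VPA library in 5 of 49 (10.2%) and fewer in 0, against 10.2% and 0.147% of all protein-coding genes. The 5 were CELSR2, BCL9, LGR6, CSNK1A1 and PTK7. CTCF peaks were more numerous in 0 and fewer in 3 (6.12%), VANGL1, TCF7L1 and BCL9L, against 0.351% and 0.774% of all genes. The pathway windows held a mean of 4.14 CTCF peaks in CTRL, against 2.45 over all genes, and the difference in shares was not tested. At their starts, 33 of 49 (67.3%) had H3K27ac in all 6 libraries, against the 34.9% of the ligands, receptors and antagonists and 51.4% of all protein-coding genes. Of 99 H3K27ac regions with a peak in all libraries, 10 fell (10.1%) and 4 rose (4.04%) in the paired fit, near the 11.8% and 4.73% of all regions. The largest fall lay 77601 bp from the start of TCF7L2, a TCF/LEF factor (chr10:113027424-113029174, -1.56 ± 0.22, adjusted p 0.00139, paired limma). The largest rise lay 399208 bp from the start of ROR1, a WNT co-receptor (chr1:64172891-64174047, 1.34 ± 0.25, adjusted p 0.0036, paired limma). The region that holds the LEF1 start fell by 0.69 and the one near the start of CTNNB1, the gene of beta-catenin, by 0.66 on the log2 scale.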

How the data were processed

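ChIP-seq was performed for H3K27ac and CTCF in untreated and VPA-treated HEK293T cells. The authors aligned paired-end reads to hg38 with Bowtie2 and called peaks in each library with MACS3 (3.0.0a7 in the submitters' processing notes) with a q-value limit of 0.05 and no pooling. The deposited lists hold for each peak the fold enrichment (a ratio) over the local background with 2 significance values, a −log10 p-value and a −log10 q-value, all from the authors' peak caller. Whether the inputs were given to the caller was not stated, and input libraries were not analysed here.

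Members and gene lists were chosen with earlier results of these data known. Gene records came from GENCODE 44. A window was the gene body plus 10 kb on either side, and 3 pairs of neighbouring members had overlapping windows, so totals count a peak once. Peaks sharing 1 bp across the 6 libraries of an antibody were merged into regions. A summit within 1 kb marked a start, which was that of the gene record, so other starts of a gene were not counted. Pileup and local background were recovered from the deposited fold and −log10 p-value, with the pileups whole within 0.05 in at least 99.9975% of peaks per list. The lowest local background of a list served as its background coverage. No pair of lists was a copy of another (at most 0.0192% identical intervals).

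Log2 fold enrichment at regions found in every library of an antibody was tested with limma 3.58.1 (R 4.3.3, moderated with a trend, Benjamini-Hochberg over all regions). Regions needed a peak in all libraries, so 54 of 95 H3K27ac and 63 of 135 CTCF member regions were not tested. The submitters' notes also name DiffBind, which needs reads that were not used here. Same-numbered H3K27ac libraries had correlated deviations from their group means (r = 0.865, 0.585 and 0.591), so a fit with the replicate number as a block is given beside the result. For CTCF these were 0.34, -0.0451 and 0.477. CTRL replicate 2 of H3K27ac correlated slightly better with VPA replicate 3 (0.607), and CTRL replicate 3 nearly as well with VPA replicate 2 (0.554). Replicate 1 against the others gave r from -0.731 to -0.688. The pairing is inferred from the data and not stated by the labels, and within replicates 2 and 3 it rests on the numbers alone. Windows on member genes can hold the start of a neighbour, such as PPP6R3 beside LRP5, FBXL14 inside WNT5B and EPDR1 inside SFRP4. The genes named were members with regions in 1 treatment only, with peak numbers that did not overlap, with a called region or else the largest differences per antibody, with a start peak in all libraries, or with no H3K27ac peak. The partly marked starts (such as FZD10 and RSPO3) and the pathway genes with values were named after their values were seen. Alternatives covered a stricter q-value, equal list lengths, other windows, other measures and leaving out replicates, and the pairing or pileup combined with centring or with each other was added after seeing the data. Intervals were handled in Python 3.11.15 with pandas 2.3.3, numpy 2.4.6 and scipy 1.17.1, and figures with matplotlib 3.10.9. The fits were tested on simulated data.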

Additional observations from a re-analysis of the deposited data

How the results depend on the processing

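The difference in H3K27ac peaks over the members (13) kept its sign under the other settings except equal list lengths (-3.33), and ranged from 7.5 to 17.5 when 1 library was left out. The difference in start peaks (2.67) likewise turned to -2 at equal list lengths and ranged from 0.833 to 5.83. The CTCF difference (3.67) ranged from -6.67 to 12.3, falling to -6.67 without CTRL replicate 1 and to -2.17 without VPA replicate 2. Members with more H3K27ac peaks numbered 1 when the −log10 q-value had to reach 3, 0 at equal list lengths, 0 with the gene body alone, 2 to 4 with 1 library left out (4 without VPA replicate 1) and 4 with replicates 2 and 3 only, where 1 member had fewer. Regions only in VPA numbered 0 at equal list lengths (1 only in CTRL), 1 with the gene body alone, 3 to 5 with 1 library left out (5 without VPA replicate 1) and 6 with replicates 2 and 3 only. For CTCF, members with more peaks, members with fewer, VPA-only regions and CTRL-only regions each ranged from 0 to 1 with 1 library left out. With replicates 2 and 3 only, CTCF gave 1 member with more, 2 VPA-only regions and 1 CTRL-only region, and counted within replicate pairs (the replicate block) it gave 1 member with more and 1 with fewer. For these counts of members and of regions in 1 treatment only, shares over all genes or gene windows were not counted under the alternative settings. Called H3K27ac member regions numbered 0 without pairing, 9 with the replicate block, 8 with the block after centring on the median, 11 with recovered pileups (17 after centring), 29 with pileups and the block (25 after centring) and 4 with replicates 2 and 3 only. These counts have to be read against the calls over all 18407 regions. There, pileups and the block called 9889 lower and 2239 higher (6505 and 4579 after centring). Pileups alone called 2456 lower and 744 higher (4996 and 2194 after centring). With replicates 2 and 3 only, 1402 of 22651 regions were called lower and 633 higher. Centring on the median moved the split of paired pileup calls at members from 6 higher and 23 lower to 9 and 16, and the median log2 difference over all regions before centring was -0.14 for folds and -0.28 for pileups. All 9 called regions kept their direction in every setting, and WNT5B lost its call after centring (adjusted p 0.073). The replicate block left CTCF at 0 calls, although same-numbered CTCF libraries did not all deviate together. Causes were not tested. The lists give no read totals, and a peak missing from a list is a value under the caller's threshold and not an absence of signal.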
